A study of Mus musculus with 202 samples.

Results

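F1 oocytes of the combined exposure were compared with F1 controls. Their F0 females had been given a diet labelled high fat and high sugar together with dihydrotestosterone (HFHS+DHT), against a control diet with vehicle (CD+Veh). Oocytes were kept where the library held at least 100000 counts over gene rows, with spike-in and eGFP rows left out, and at least 4000 genes with a count. That kept 23 of the 202 oocytes of the series: 13 of 15 HFHS+DHT oocytes and 10 of 15 CD+Veh oocytes. The diet alone (HFHS+Veh, 14 of 15 oocytes kept) and the androgen alone (CD+DHT, 8 of 15 kept) gave the sum against which the combined exposure was set. All 4 groups were C57Bl/6J mice, each library was 1 oocyte at metaphase II (MII) made with Smart-seq2 from polyadenylated RNA, and the oocytes were numbered within their group. No source used here gives the dose, the timing, the ages or the number of females. The titles of the F1 oocytes named no animal, so each group counted as 1 sample, oocytes were not taken as replicates, and no test of a difference was possible. The titles put 15 oocytes in HFHS+Veh, and the characteristics of all 15 named dihydrotestosterone. Groups followed the titles here. Each value of diet alone, of the sum and of the departure from it therefore rests on a group whose hormone label is in conflict.

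An MII oocyte has stopped transcription and lives on RNA that it stored while growing, until fertilisation and the start of transcription in the embryo. What is measured is therefore the stored RNA together with what has been lost or has kept its poly(A) tail during maturation. Dihydrotestosterone is an androgen that cannot be turned into oestrogen, and excess of androgens is a defining feature of polycystic ovary syndrome. Cumulus cells, the granulosa cells that surround the oocyte and feed it through gap junctions, can leave RNA on an oocyte that was not fully stripped.

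Counts were summed over the kept oocytes of a group and scaled to 1000000 (CPM). Square brackets hold the exact 95% Poisson interval of a sum, which covers counting error only. A fold is the log2 ratio of 2 pooled levels. The departure is the combined log2 fold (HFHS+DHT over CD+Veh) minus the sum of the diet log2 fold (HFHS+Veh over CD+Veh) and the androgen log2 fold (CD+DHT over CD+Veh). It is 0 where the combined exposure equals the sum, and all 3 folds share the CD+Veh oocytes. The pools held 17513614 counts in HFHS+DHT, 42823936 in HFHS+Veh, 7900707 in CD+DHT and 22081569 in CD+Veh. Libraries ran from 133654 to 4070350 counts in HFHS+DHT and from 158259 to 7660532 in CD+Veh. The largest library gave 23.2% of the HFHS+DHT pool, 24.5% of HFHS+Veh, 41.5% of CD+DHT and 34.7% of CD+Veh, so a single oocyte could move a pooled fold. A range beside a fold, a departure or a median holds the lowest and highest value without each oocyte in turn.

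The 14 genes listed as marks of an MII oocyte were all measured, and their summed level ran from 21501 to 42739 CPM over HFHS+DHT oocytes (median 26000.0) and from 9062 to 40893 CPM over CD+Veh oocytes (median 30932). In both groups some libraries stood apart. HFHS+DHT oocyte 10, with 19.96% of its pool, had 42739 CPM of these genes, above the 21501 to 31811 CPM of the other 12. CD+Veh oocytes 7 and 8 held 2.66% and 4.33% of spike-in counts. They had 584 and 162 CPM of Gdf9, against 3728 to 15666 CPM in the other kept CD+Veh oocytes, and gave 0.783% and 1.31% of the pool. They met the rule and stayed in. Thinned to 100000 counts, the median HFHS+DHT oocyte had 6228 genes with a count (5601 to 7054). HFHS+Veh oocytes had 6784, CD+DHT oocytes 6609.7 and CD+Veh oocytes 6738 (5572 to 7110.4). The ranges overlapped, and the median of HFHS+DHT was below those of the other groups. The median share of spike-in counts was 0.50% in HFHS+DHT, 0.48% in HFHS+Veh, 0.51% in CD+DHT and 0.47% in CD+Veh. Less RNA per oocyte, less complete capture and loss of particular transcripts were not tested and cannot be told apart here.

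Of the 40 cumulus and granulosa markers, the protease inhibitor Serpine2 and the aromatase Cyp19a1 had counts in all 45 kept F1 oocytes, so the other 38 were summed. Their pooled level was 351 CPM in HFHS+DHT, 695 in HFHS+Veh, 133 in CD+DHT and 96.2 in CD+Veh. Over oocytes it ran from 10.8 to 1257 CPM (median 131) in HFHS+DHT, from 19.51 to 3260.0 CPM (median 392) in HFHS+Veh, from 21.7 to 740.0 CPM (median 101) in CD+DHT and from 20.7 to 661 CPM (median 131) in CD+Veh. The medians of HFHS+DHT and CD+Veh were thus close while the pools were not. The deeply sequenced HFHS+DHT oocyte 12 held 786 CPM, and the deepest CD+Veh oocytes, 11 and 6, held 118 and 31.4 CPM. Amh, Areg and Wt1 were at 0 in all 4 pools. At 0 in the pool were 8 of the 40 markers in HFHS+DHT, 3 in HFHS+Veh, 11 in CD+DHT and 10 in CD+Veh. Markers of stroma and theca summed to a median of 11.1 CPM in HFHS+DHT oocytes and 9.51 CPM in CD+Veh oocytes, and markers of blood, endothelial and immune cells to 96.7 and 141 CPM in that order.

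**Figure D1:**
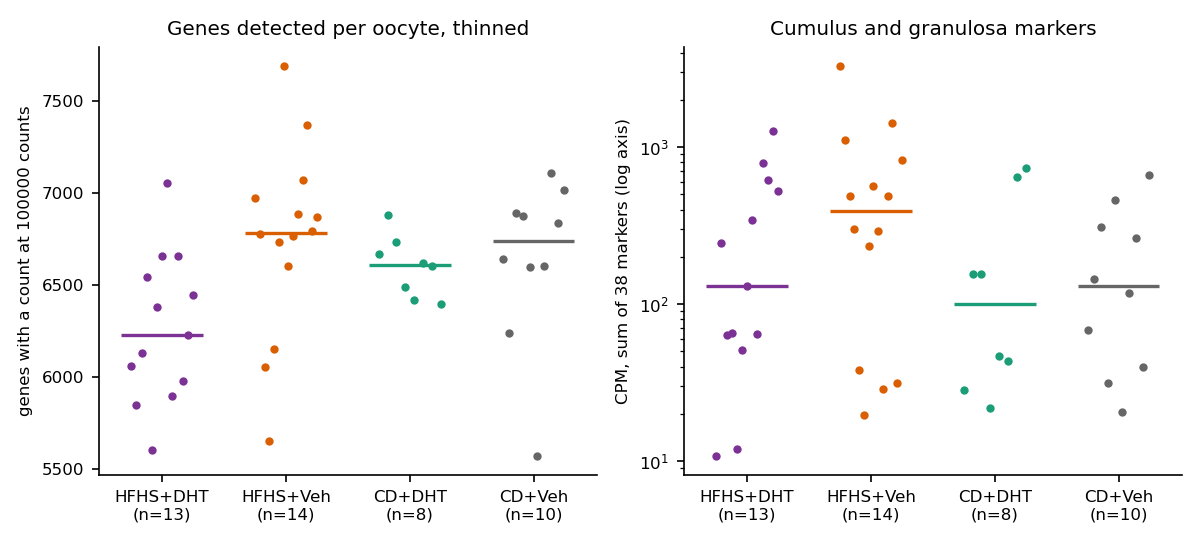
Each dot is 1 F1 oocyte and each bar a group median, with HFHS+DHT on the left and CD+Veh on the right. Left, genes with a count after thinning to 100000 counts, with a median of 6228 in HFHS+DHT and 6738 in CD+Veh; right, the summed CPM of 38 cumulus and granulosa markers on a log axis, where HFHS+Veh oocyte 1 is highest at 3260.0 CPM.

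In the combined exposure the stored RNA for Wtap, Paip1 and Jag1 was higher than in controls and that for Gdf9, H1foo and Oas1d lower, among abundant transcripts. Among the largest folds upward were those of Spp1, Gm2a and Ctsl, which were higher still under diet alone, and among the largest downward those of Nipsnap1, Mbd4 and Nop56. Of 7173 genes whose 2 pools averaged 5 CPM or more, 117 were at least 2-fold higher in HFHS+DHT (1.63%) and 153 at least 2-fold lower (2.13%), together 270 (3.76%). At any size 45.0% were higher and 55.0% lower, with a median log2 fold of -0.05. The number that were lower rested on HFHS+DHT oocyte 10: without it 468 genes were at least 2-fold lower, and with each oocyte given the same weight 685. Without CD+Veh oocytes 7 and 8, a choice made after seeing the data, 122 were higher and 152 lower. Past 2-fold whichever oocyte was left out were 56 of the 117 higher genes and 58 of the 153 lower ones. As a yardstick, the SD of log2(CPM + 1) between the 4 F2 CD+Veh animals, which the titles do name, had a median of 0.42 over the same genes. It is the spread of single animals, while a fold compares 2 pools from an unknown number of females. A fold above this SD is therefore not shown to exceed the variation between animals.

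Most genes lay close to the sum of the single exposures, but most also lay close to no change. Of those past 2-fold from the sum more lay below it than above it. The departure was measured over 7231 genes whose 4 pools averaged 5 CPM or more, with at least 3 counts in each. The combined fold was at least 2-fold above the sum in 201 genes (2.78%) and at least 2-fold below it in 398 (5.5%). Below the sum at any size were 54.0%, the median departure was -0.04, and 70.9% of genes lay within 0.5 of the sum. For the combined fold itself 77.0% of the same genes lay within 0.5 of 0. The share near the sum therefore does not show that the single exposures add up. The median departure changed side with the scaling, to 0.03 with TMM and 0.03 with median-ratio factors. Over the same genes, diet alone was at least 2-fold higher in 179 (2.48%) and lower in 39 (0.539%), androgen alone in 138 (1.91%) and 171 (2.36%), and the combined exposure in 133 (1.84%) and 166 (2.3%). The middle 50% of genes spanned 0.526 log2 units for the combined fold, 0.373 for diet alone, 0.477 for androgen alone, 0.734 for their sum and 0.583 for the departure. Added as CPM differences in place of log2 folds, 53.4% of genes were below the sum, and 97.0% lay on the same side on both scales. For small folds, which most genes had, both scales give nearly the same side by arithmetic. The 97.0% therefore says little about genes with large folds. Of the 201 and 398 genes, 61 and 151 were past 2-fold whichever of the 45 oocytes was left out.

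Among abundant transcripts, the 5 with the largest difference downward in CPM were Tcl1, Gdf9, H1foo, Oas1d and D6Ertd527e, and each was lowest in the HFHS+DHT pool. A low HFHS+DHT level enlarges this difference and also lowers the departure. The rank of that pool and the departures of the 5 are therefore not independent of the choice. Gdf9, the growth factor by which the oocyte directs its cumulus cells (chromosome 11, 53431023 to 53437904 of the mm10 build), ranged over 2336 to 17218 CPM (median 4317) in HFHS+DHT oocytes, 2173 to 14128 CPM (median 10790.4) in HFHS+Veh, 3518 to 11985 CPM (median 7955) in CD+DHT and 162 to 15666 CPM (median 8304) in CD+Veh. The ranges overlapped, and 12 of the 13 HFHS+DHT oocytes lay below the CD+Veh median; the exception was oocyte 10, the highest of all at 17218 CPM, with the other 12 at 2336 to 5943. Pooled, Gdf9 stood at 6755 CPM [6716 to 6793] in HFHS+DHT and 9981 CPM [9939 to 10023] in CD+Veh, a log2 fold of -0.56 that was -1.27 without HFHS+DHT oocyte 10 and -0.19 without CD+Veh oocyte 6. The diet log2 fold was -0.04 and the androgen log2 fold -0.22, so the combined fold departed from their sum by -0.30 (-1.01 to -0.04 without each oocyte in turn).

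H1foo, the linker histone found only in oocytes and early embryos (chromosome 6, 115944938 to 115950236), ranged over 5359 to 21031 CPM (median 8086) in HFHS+DHT oocytes and 307 to 18482 CPM (median 12108) in CD+Veh oocytes. Again 12 of 13 HFHS+DHT oocytes were below the CD+Veh median and oocyte 10 above every CD+Veh oocyte, at 21031 CPM. The pooled log2 fold was -0.36 (-0.77 without HFHS+DHT oocyte 10 to -0.12 without CD+Veh oocyte 6), against 0.07 for diet and -0.14 for androgen alone. Oas1d, an oocyte member of the 2′-5′ oligoadenylate synthetase family (chromosome 5, 120914536 to 120921652), ranged over 1882 to 7355 CPM (median 2604) in HFHS+DHT and 772 to 8464 CPM (median 4593) in CD+Veh, with a log2 fold of -0.54 (-0.95 without HFHS+DHT oocyte 10 to -0.36 without CD+Veh oocyte 6). The transcript D6Ertd527e ranged over 1839 to 4587 CPM (median 2502) in HFHS+DHT and 2501 to 6971 CPM (median 4683) in CD+Veh. All 13 HFHS+DHT oocytes, oocyte 10 among them, were below its CD+Veh median, and 6 were below every CD+Veh oocyte; the log2 fold was -0.52 (-0.69 without HFHS+DHT oocyte 10 to -0.43 without CD+Veh oocyte 6). Tcl1, a coactivator of the kinase Akt that the early embryo needs from the egg, was lower by less, at 15394 CPM [15336 to 15452] in HFHS+DHT and 19941 CPM [19882 to 19999.9] in CD+Veh (log2 fold -0.37). For H1foo, Oas1d and D6Ertd527e the diet log2 folds were 0.07, 0.01 and 0.04, the androgen log2 folds -0.14, -0.28 and -0.25, and the departures -0.28 (range -0.69 to -0.03), -0.27 (range -0.68 to -0.12) and -0.31 (range -0.48 to -0.19). Reads of the similar Oas1 genes may have been split between them by the counting program, which no source used here names.

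The 5 abundant transcripts with the largest difference upward were Paip1, Wtap, Jag1, Spin1 and Ncoa3. Wtap, a subunit of the enzyme that writes m6A on RNA (chromosome 17, 12966796 to 12994169), ranged over 3127 to 20553 CPM (median 14069) in HFHS+DHT oocytes, 2522 to 20812 CPM (median 5654) in HFHS+Veh, 4944 to 17447 CPM (median 6619) in CD+DHT and 3083 to 12913 CPM (median 5089) in CD+Veh. Its highest CD+Veh oocyte was exceeded by 8 of the 13 HFHS+DHT oocytes, and oocyte 10 was the lowest of the 13 at 3127 CPM, with the other 12 at 8588 CPM or more. The pooled log2 fold was 0.97 (0.77 to 1.20 without each oocyte in turn), against 0.24 for diet and 0.37 for androgen. Paip1, which joins poly(A)-binding protein to the translation machinery (chromosome 13, 119428601 to 119458218), had 12422 CPM [12370.2 to 12475] in HFHS+DHT and 6579 CPM [6545 to 6613] in CD+Veh (log2 fold 0.92, 0.72 without CD+Veh oocyte 6 to 1.17 without HFHS+DHT oocyte 10). Over oocytes Paip1 ran from 3085 to 25252 CPM (median 16154) in HFHS+DHT and from 4248 to 17280.1 CPM (median 7530.0) in CD+Veh, with 11 of 13 HFHS+DHT oocytes above the CD+Veh median. The Notch ligand Jag1 (0.65, range 0.43 to 0.87), the nuclear receptor coactivator Ncoa3 (0.76) and the histone reader Spin1 (0.18, range 0.09 to 0.27) had smaller log2 folds. Ncoa3 ran from 902 to 6512 CPM (median 4821) in HFHS+DHT oocytes and from 949 to 4523 CPM (median 1849) in CD+Veh oocytes. For Jag1 and Ncoa3, 12 of 13 HFHS+DHT oocytes lay above the CD+Veh median, and for Spin1 9 of 13, so the groups overlapped for each. Each of the 5 was highest in the HFHS+DHT pool, with departures of 0.36 (range 0.15 to 0.67) for Wtap, 0.35 (range 0.18 to 0.61) for Paip1, 0.24 (range 0.02 to 0.49) for Ncoa3, 0.21 (range 0.11 to 0.29) for Spin1 and 0.17 for Jag1, the last -0.02 to 0.40 without each oocyte in turn. The 5 were chosen by a difference that a high HFHS+DHT level raises, and such a level also raises the departure. That rank and these departures are therefore not independent of the choice. The SD of log2(CPM + 1) over F2 CD+Veh animals came to 1.20 for Wtap, 1.23 for Paip1, 1.10 for Jag1, 0.83 for Ncoa3 and 0.72 for Spin1. The folds of these 5 were smaller than that spread. Of the 5 lower transcripts, the SD was above the size of the fold for Tcl1 (0.53) and H1foo (0.38). It was below it for Gdf9 (0.41), Oas1d (0.25) and D6Ertd527e (0.27), but the log2 fold of Gdf9 was only -0.19 without CD+Veh oocyte 6. The number of genes detected moved with these transcripts: oocyte 10 had 7054 genes at 100000 counts, the most of its group. Its part in their levels was not tested.

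**Figure D2:**
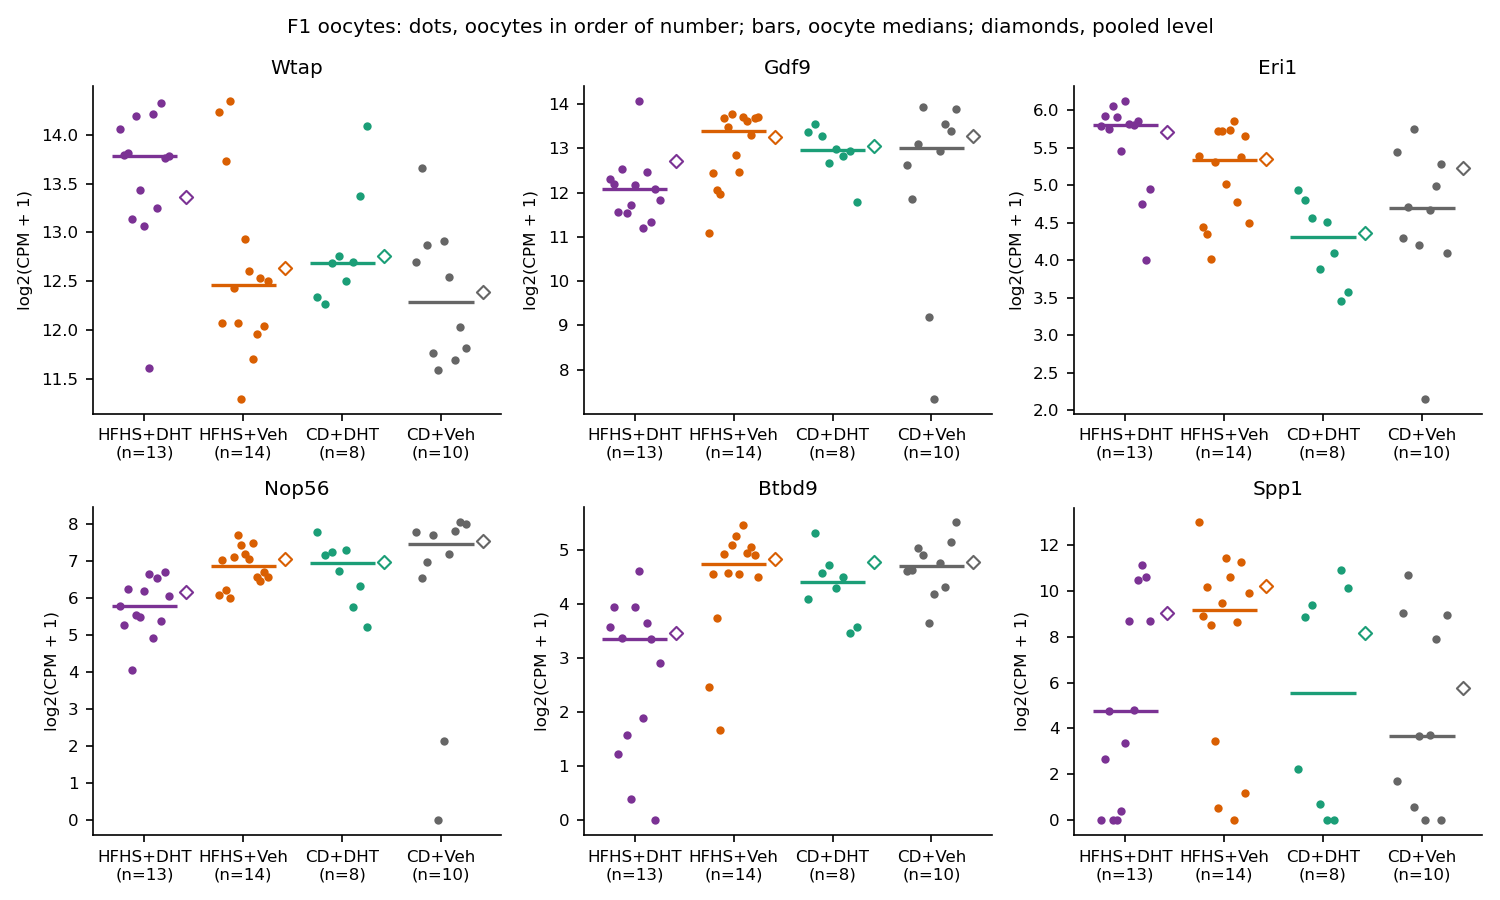
Levels of Wtap, Gdf9, Eri1, Nop56, Btbd9 and Spp1 as log2(CPM + 1), each dot 1 oocyte, bars the oocyte medians and diamonds the pooled levels, HFHS+DHT left and CD+Veh right. Of the 13 HFHS+DHT oocytes, 12 are above the CD+Veh median of Wtap and of Eri1, 12 are below that of Gdf9, and all 13 are below those of Nop56 and Btbd9, while Spp1 spans 0 to 2270.1 CPM.

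The 12 largest folds downward, among genes of at least 20 CPM in either pool whose direction held with equal weights, with oocyte medians and without each oocyte, ran from -1.90 to -1.34, from -2.90 to -0.82 with equal weights and from -2.61 to -0.35 with oocyte medians. For 11 of the 12 HFHS+DHT was the lowest of the 4 pools, and for 11 both single exposures were below CD+Veh as well. The 12 were chosen by a fold that a low HFHS+DHT level or a high CD+Veh level makes more negative. Both counts are therefore not independent of the choice, and a low HFHS+DHT level also lowers the departure. Nop56, a core protein of the particles that guide methylation of ribosomal RNA (chromosome 2, 130274430 to 130279313), ranged over 15.6 to 105 CPM (median 54.2) in HFHS+DHT oocytes, 62.9 to 207 CPM (median 117) in HFHS+Veh, 36.5 to 223 CPM (median 125) in CD+DHT and 0 to 265 CPM (median 178) in CD+Veh. All 13 HFHS+DHT oocytes were below the CD+Veh median, and the ranges overlapped through CD+Veh oocytes 2, 7 and 8. Pooled it stood at 71.4 CPM [67.5 to 75.4] in HFHS+DHT and 185 CPM [179.8 to 191] in CD+Veh, a log2 fold of -1.38 (-1.53 to -1.26 without each oocyte in turn), against a sum of -1.03 and a departure of -0.35 (range -0.50 to -0.18).

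Nipsnap1, a protein of mitochondria (chromosome 11, 4873951 to 4894200), had the largest fold of the 12, with 0 to 10.6 CPM (median 4.005) in HFHS+DHT oocytes and 9.98 to 52.1 CPM (median 29.5) in CD+Veh oocytes. Below every CD+Veh oocyte were 12 of the 13 HFHS+DHT oocytes. Its log2 fold of -1.90 stood beside -0.03 for diet and -1.31 for androgen, a departure of -0.56 (range -0.91 to -0.29). Mbd4, the glycosylase that removes thymine mispaired at methylated CpG sites (chromosome 6, 115840697 to 115853371), had 10.8 CPM [9.36 to 12.5] in HFHS+DHT and 29.5 CPM [27.3 to 31.9] in CD+Veh. Its combined log2 fold of -1.44 was close to the sum of -1.32. Atg4b, the protease that processes LC3 for autophagy (chromosome 1, 93751500 to 93790610), had a combined log2 fold of -1.44 and a sum of -1.20. Cdk5rap1, which modifies mitochondrial transfer RNAs (chromosome 2, 154335380 to 154373010), had -1.66 against a sum of -1.996; only 8 of 13 HFHS+DHT oocytes were below its CD+Veh median, and with oocyte medians the fold was -0.35. Copb2 of the COPI vesicle coat (-1.35, sum -1.14), the exocyst subunit Exoc3 (-1.34, sum -0.82), Nicn1 of the tubulin polyglutamylase complex (-1.5996, sum -1.31), Ttc17 (-1.52, sum -1.18), Tmem42 (-1.40, sum -1.03) and 1810043G02Rik (-1.34, sum -0.81) made up the 12, each given by its combined log2 fold. When CPM differences were added in place of log2 folds, 6 of the 12 lay below the sum and 6 above it.

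Btbd9, a BTB domain protein (chromosome 17, 30215524 to 30576488), was the 1 gene of the 12 with neither single exposure below CD+Veh. It ranged over 0 to 23.5 CPM (median 9.22) in HFHS+DHT oocytes, 2.17 to 43.1 CPM (median 25.78) in HFHS+Veh, 9.95 to 38.8 CPM (median 20.1) in CD+DHT and 11.6 to 44.4 CPM (median 24.9) in CD+Veh. All 13 HFHS+DHT oocytes lay below the CD+Veh median and 10 below every CD+Veh oocyte. Its combined log2 fold was -1.40 and the sum 0.05, a departure of -1.46 that ran from -2.05 without HFHS+DHT oocyte 10 to -1.15 without CD+DHT oocyte 2. It was the 1 gene of the 12 with a departure past 1 in size, and 8 of the 12 had one under 0.5. Of the 12 departures 7 changed side when some oocyte was left out. The SD of log2(CPM + 1) over F2 CD+Veh animals came to 0.47 for Btbd9, 0.63 for Nop56, 0.41 for Mbd4 and 0.78 for Nipsnap1, below the size of the combined fold of each. With an unknown number of females in each pool, this does not show that the folds exceed the variation between animals.

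The 12 largest folds upward under the same conditions ran from 1.6004 to 3.95, from 0.68 to 2.63 with equal weights and from 0.84 to 2.83 with oocyte medians. Of the 12, 11 were higher still in the HFHS+Veh pool, Lox being the exception. Spp1, the secreted phosphoprotein osteopontin (chromosome 5, 104435118 to 104441050), ranged over 0 to 2270.1 CPM (median 26.46) in HFHS+DHT oocytes, 0 to 8173 CPM (median 595) in HFHS+Veh, 0 to 1935 CPM (median 233) in CD+DHT and 0 to 1668 CPM (median 11.9) in CD+Veh. In HFHS+DHT 3 of 13 oocytes had no count and 7 were above the CD+Veh median, so the ranges overlapped throughout. Pooled it stood at 529 CPM [518 to 539.8] in HFHS+DHT, 1183 CPM [1173 to 1193] in HFHS+Veh, 285 CPM [273 to 297] in CD+DHT and 52.9 CPM [49.9 to 56.0] in CD+Veh. The combined log2 fold of 3.32 (2.29 without HFHS+DHT oocyte 12 to 3.91 without CD+Veh oocyte 2; 1.09 with oocyte medians) was below the diet log2 fold of 4.48 and far below the sum of 6.91. Between F2 CD+Veh animals the SD of log2(CPM + 1) of Spp1 was 3.33, about the size of the fold.

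Hsd3b1, which makes progesterone from pregnenolone (chromosome 3, 98852194 to 98859794), had 43.6 CPM [40.5 to 46.8] in HFHS+DHT and 4.35 CPM [3.52 to 5.31] in CD+Veh, with counts in 7 of 13 HFHS+DHT oocytes and 5 of 10 CD+Veh oocytes. Its log2 fold of 3.32 ran from 2.71 without CD+Veh oocyte 11 to 5.84 without CD+Veh oocyte 12. Its highest CD+Veh oocyte was 7, one of the 2 that stood apart, and reads of related Hsd3b genes may be shared. Lox, which crosslinks collagen and elastin (chromosome 18, 52516067 to 52529867), was the 1 gene of the 12 highest in HFHS+DHT, at 21.6 CPM in HFHS+DHT, 8.27 in HFHS+Veh, 5.82 in CD+DHT and 1.40 in CD+Veh. It had a count in 7 of 13 HFHS+DHT oocytes and 3 of 10 CD+Veh oocytes, and its log2 fold of 3.95 ran from 3.29 without HFHS+DHT oocyte 12 to 5.66 without CD+Veh oocyte 12. The lysosomal protease cathepsin L, Ctsl, stood at 33.4 CPM in HFHS+DHT, 37.0 in HFHS+Veh, 10.8 in CD+DHT and 4.62 in CD+Veh, and its log2 fold of 2.85 ran from 2.37 without CD+Veh oocyte 6 to 3.70 without CD+Veh oocyte 11. Gm2a, the activator of ganglioside breakdown, stood at 86.4 CPM in HFHS+DHT, 343 in HFHS+Veh, 43.7 in CD+DHT and 11.6 in CD+Veh. Ephx2, the soluble epoxide hydrolase, had a combined log2 fold of 2.70, the zinc importer Slc39a1 2.64, the SMAD corepressor Skil 2.62 and Wbp5 2.61. The heparan sulfate proteoglycan Sdc4 had 1.95 (range 1.20 to 2.38), the actin-linked kinase substrate Marcks 1.77 and the galactosyltransferase B4galt1 1.6004. For Marcks and B4galt1 12 of 13 HFHS+DHT oocytes were above the CD+Veh median, for Slc39a1 11 and for Sdc4 10, and for the other 8 genes 7 or 8.

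In the pools all 12 were below the sum, 10 of them by at least 1 log2 unit, and 11 were below it when CPM differences were added. The 12 were chosen by a fold that a low CD+Veh level raises, and such a level also lowers the departure. The choice of genes and this count are therefore not independent. Without each oocyte in turn 11 stayed below the sum, but only 5 by at least 1. The departure of Hsd3b1, -0.45 in the pools, was 0.35 without CD+DHT oocyte 10. Without HFHS+Veh oocyte 1 those of Slc39a1, Wbp5 and Skil were -0.0013, -0.12 and -0.61, and without CD+Veh oocyte 11 that of Lox was -0.05. Summed cumulus marker RNA moved with them, at 351 CPM in HFHS+DHT and 96.2 in CD+Veh; its part in these folds was not tested. Hsd3b1 and Sdc4 were themselves on the marker list. Of the list's 40 markers 15 were measured, and they had a median combined log2 fold of 1.95, with 11 higher, 9 of those past 2-fold, and 4 lower. Markers could pass the minimum level through HFHS+DHT alone, so this median is a description, and with oocyte medians it was -0.04. Examples were Akr1c18, which inactivates progesterone (73.9 CPM in HFHS+DHT and 8.42 in CD+Veh), and the glutathione transferase Mgst1 (36.8 and 7.79 CPM in the same order). Both directions turned with oocyte medians, where the log2 fold of Akr1c18 was -2.78 in place of 3.13 and that of Mgst1 -0.62 in place of 2.24. Akr1c18 had a count in 4 of 13 HFHS+DHT oocytes and 7 of 10 CD+Veh oocytes. Pooled levels were also higher for the connexin Gja1 (36.9 and 12.6 CPM in that order) and the inhibin subunit Inha (19.13 and 1.63 CPM). The Kit ligand Kitl and the nuclear receptor Nr5a2 went the other way, at 11.3 and 14.22 CPM in HFHS+DHT and 14.6 and 19.38 CPM in CD+Veh.

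**Figure D3:**
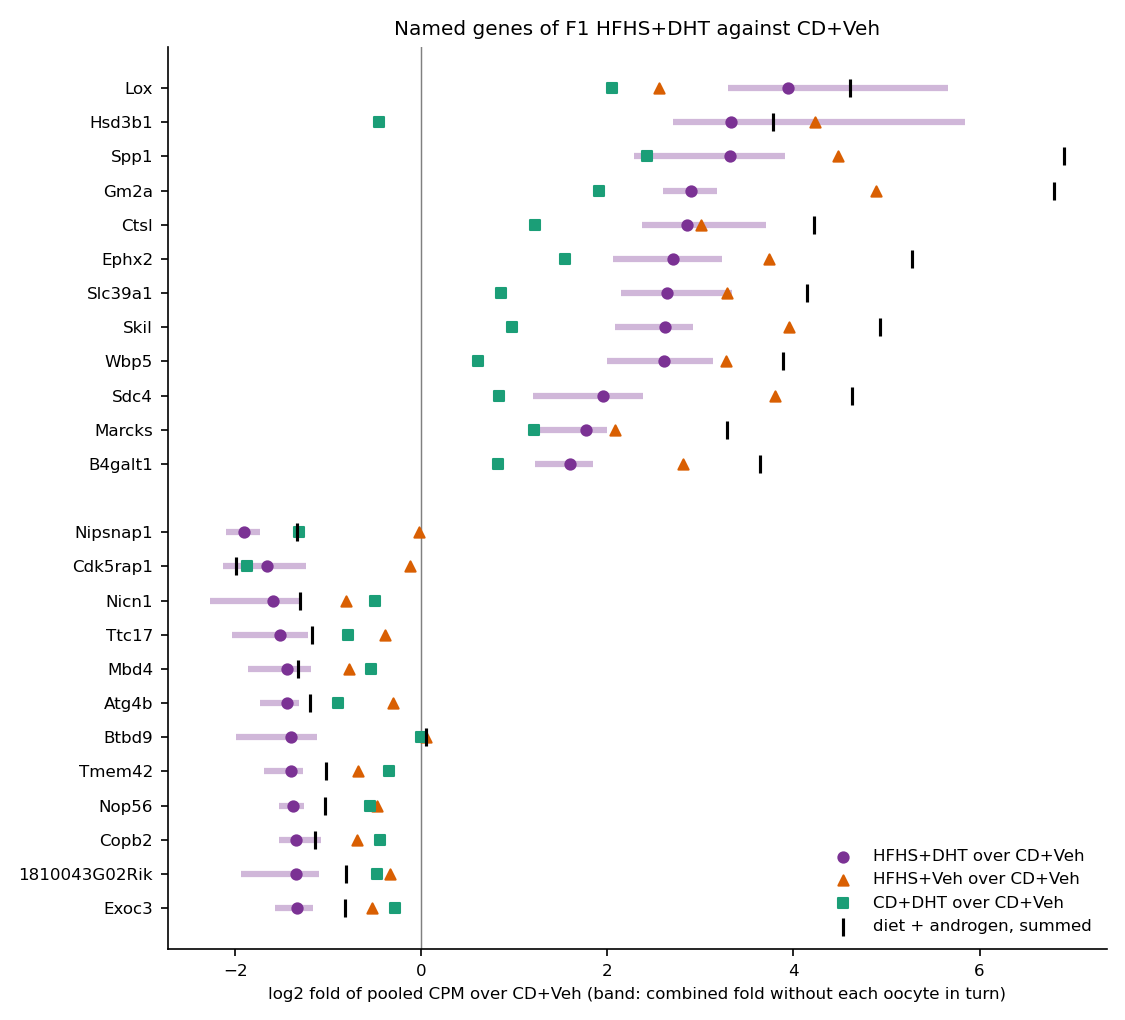
The 12 largest log2 folds upward and downward of HFHS+DHT over CD+Veh (circles) with their range without each oocyte in turn (bands), beside diet alone (triangles), androgen alone (squares) and the sum of those (vertical ticks). Of the 12 higher genes all circles lie left of their sum, Gm2a by -3.90 and Lox by -0.66; of the 12 lower genes 11 lie left of it and 8 within 0.5 of it. The genes were chosen by the combined fold, so these counts are not independent of the choice.

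For the departure the genes were named by size among those of at least 20 CPM over the 4 pools that kept their side of the sum under the same alternatives. The 8 departures named on each side ran from 1.21 to 1.72 above and from -3.90 to -2.07 below, and with oocyte medians from 0.42 to 1.68 and from -6.26 to -0.50. The 8 furthest above the sum shared 1 shape in the pools. In all 8 the androgen-alone pool was the lowest, in 7 diet alone was also below CD+Veh, and the combined pool was within 0.5 log2 units of CD+Veh. A low androgen-alone level raises the departure, so naming by size favours this shape. By oocyte medians CD+DHT was not the lowest group for Csmd3, Gadd45gip1 and Cript. CD+DHT oocyte 6 gave 41.5% of its pool. Without it the departure was smallest for Osbpl9 (1.34), Gadd45gip1 (0.96), Cript (0.61) and Trappc13 (0.69). Eri1, the exonuclease that trims histone messenger RNA and 5.8S ribosomal RNA (chromosome 8, 35465253 to 35496196), ranged over 14.96 to 68.9 CPM (median 55.2) in HFHS+DHT oocytes, 15.2 to 57.2 CPM (median 39.6) in HFHS+Veh, 9.95 to 29.7 CPM (median 18.98) in CD+DHT and 3.44 to 52.9 CPM (median 24.8) in CD+Veh. Above the CD+Veh median were 12 of 13 HFHS+DHT oocytes, and above every CD+Veh oocyte 9. Its combined log2 fold was 0.50 (range 0.27 to 0.79), against 0.14 for diet and -0.89 for androgen, a departure of 1.26 (0.97 to 1.497 without each oocyte in turn). The SD of log2(CPM + 1) of Eri1 between F2 CD+Veh animals was 0.12, the smallest of the 8 genes, which ran up to 0.71 for Gadd45gip1.

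Gadd45gip1, which belongs to the mitochondrial ribosome (chromosome 8, 84831522 to 84835482), had 27.1 CPM in HFHS+DHT, 28.2 in HFHS+Veh, 12.4 in CD+DHT and 31.9 in CD+Veh, a departure of 1.30. Csmd3, a large membrane protein with CUB and sushi domains, had 98.0 CPM in HFHS+DHT, 66.3 in HFHS+Veh, 57.7 in CD+DHT and 103 in CD+Veh, a departure of 1.40 (0.90 without CD+Veh oocyte 11 to 1.77 without CD+DHT oocyte 1). In both genes the level in HFHS+DHT was nearer to CD+Veh than that in CD+DHT was. Osbpl9, of the oxysterol-binding protein family, departed by 1.72, or 0.53 with oocyte medians. Its highest CD+Veh oocyte was 7, at 295 CPM, and the highest for Cript and Trappc13 was 8, at 441 and 62.0 CPM, those being the oocytes that stood apart. The mucin Muc20 (1.35, range 0.82 to 1.65), the zinc finger protein Zfp58 (1.26), Cript (1.23, range 0.61 to 1.64) and Trappc13 of a vesicle tethering complex (1.21, range 0.69 to 1.40) made up the 8. With oocyte medians Cript and Trappc13 departed by 0.55 and 0.42.

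The 8 furthest below the sum were all highest in the HFHS+Veh pool, and both single exposures were above CD+Veh in every one. High HFHS+Veh and CD+DHT levels and a low CD+Veh level lower the departure, so naming by size favours this shape too. Gm2a departed by -3.90 (-4.51 to -2.36 without each oocyte in turn), with a combined log2 fold of 2.90 against 4.89 for diet and 1.91 for androgen. Spp1 departed by -3.59, Rgcc, a regulator of the cell cycle, by -3.54, the proprotein convertase Pcsk5 by -2.74, Sdc4 by -2.68, Ephx2 by -2.57, Skil by -2.31 and the beta-tubulin Tubb5 by -2.07. HFHS+Veh oocyte 1 held the highest level of all 8 in its group, with 8173 CPM of Spp1 and 2662 CPM of Gm2a, and 3260.0 CPM of the 38 cumulus markers. Without it the departure was -2.36 for Gm2a, -2.35 for Spp1, -1.01 for Sdc4, -0.61 for Skil and -0.63 for Tubb5. Rgcc and Pcsk5 came nearest the sum without CD+DHT oocyte 2, at -2.61 and -1.42, and Ephx2 without CD+DHT oocyte 11, at -1.96. Tubb5 was also the one of the 8 with most HFHS+DHT oocytes above the controls: it ran from 13.9 to 222 CPM (median 44.4) in HFHS+DHT and from 5.78 to 31.6 CPM (median 19.21) in CD+Veh, and 9 of 13 HFHS+DHT oocytes lay above every CD+Veh oocyte. On the CPM scale Spp1 was 476 CPM higher in HFHS+DHT than in CD+Veh, against a sum of 1362 CPM for the single exposures, and all 8 remained below the sum. Over the 15 measured cumulus markers the median departure was -1.74, with 11 below the sum, and -0.56 without HFHS+Veh oocyte 1. Markers could pass the minimum level through HFHS+Veh alone, whose fold is subtracted in the departure, so these values are a description only.

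**Figure D4:**
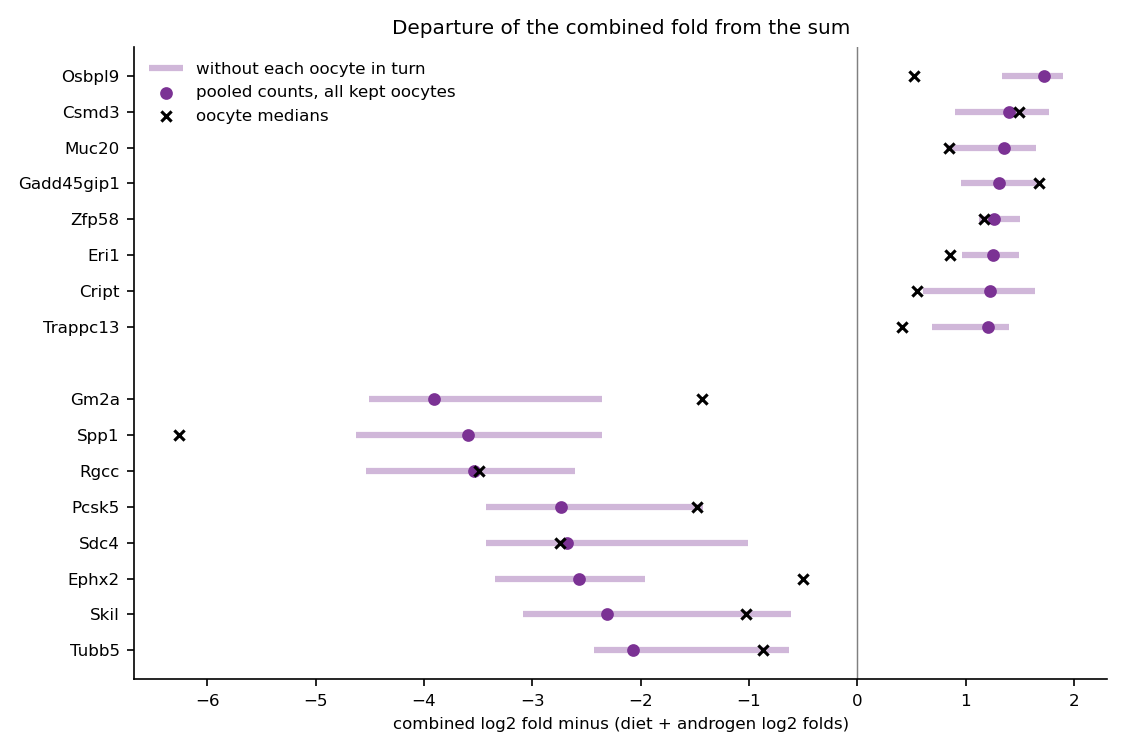
Combined log2 fold minus the sum of the diet and androgen log2 folds for the 8 genes furthest above and the 8 furthest below it: circles, pooled counts of all kept oocytes; bands, the range without each oocyte in turn; crosses, oocyte medians. Pooled departures run from 1.21 (Trappc13) to 1.72 (Osbpl9) above and from -3.90 (Gm2a) to -2.07 (Tubb5) below.

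Gene lists are given by the number of measured members on each side and by their median, beside all genes, of which 55.0% were lower and 54.0% below the sum. Of 34 lists 31 had at least 5 measured members, and 29 of these were not cell type markers. In 22 of the 29 the median combined log2 fold was below 0, the 29 running from -0.28 to 0.19. In 21 the median departure was below 0, the 29 running from -0.46 to 0.15. With oocyte medians these were 25 and 23 lists. The median combined log2 fold of all genes moved too, from -0.05 in the pools to -0.15 with oocyte medians and -0.09 without HFHS+DHT oocyte 10. The all-gene median departure went from -0.04 to -0.08 with oocyte medians. List values under those settings hold this shift of all genes. Medians near 0 had no steady side. Without some oocyte 11 of the 31 medians of the combined fold and 15 of the 31 of the departure changed sign, none of them one of at least 0.2 in size. With oocyte medians 6 and 6 did, the cumulus markers being the 1 list of that size among them. Members of a list come from the same oocytes, and with 1 sample a group no list was tested. The genes named are those of at least 20 CPM with the largest folds on their list. Of 115 such genes 76 were lower, 47 of them with a fold that leaving out 1 oocyte moved by over 1.5 times, and 39 higher, 17 of them with such a fold. The fold was furthest from 0 without HFHS+DHT oocyte 10 for 52 of the lower and 20 of the higher genes, and nearest 0 without CD+Veh oocyte 6 for 34 and 16.

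Genes of the unfolded protein response, heat shock chaperones and proteasome subunits were mostly lower, while of 23 genes of oxidative stress and glutathione defence 12 were. Of the 32 measured genes of the unfolded protein response, which senses misfolded protein in the endoplasmic reticulum, 25 were lower, with a median of -0.16 (-0.28 without HFHS+DHT oocyte 10 to -0.05 without CD+Veh oocyte 6). Hspa5, its main chaperone, had 70.1 CPM [66.2 to 74.1] in HFHS+DHT and 110.4 CPM [106 to 115] in CD+Veh (log2 fold -0.66, range -1.03 to -0.45), and the sensor kinase Ern1 had 38.5 and 54.8 CPM in that order (log2 fold -0.51, range -0.86 to -0.35). The phosphatase subunit Ppp1r15a (-0.59, range -1.16 to -0.34) and Edem2 of glycoprotein disposal (-0.57, range -1.07 to -0.24) were lower as well. Single exposures left this list near 0, with medians of 0.02 for diet and 0.0049 for androgen, and 23 of 32 members were below the sum (median departure -0.23, -0.38 without HFHS+DHT oocyte 10 to -0.13 without CD+DHT oocyte 2, -0.53 with oocyte medians). Of 33 heat shock chaperones 23 were lower (median -0.15, range -0.24 to -0.08), among them Cct7 of the ring chaperonin (23.5 CPM in HFHS+DHT and 38.6 in CD+Veh) and the Hsp70 cochaperone St13 (-0.69). Here the single exposures were lower too (-0.04 for diet and -0.21 for androgen), and the median departure was 0.07 (range -0.06 to 0.17, 0.01 with oocyte medians). Of 31 proteasome subunits 22 were lower (median -0.15, range -0.32 to -0.11), with Psmd8 (-0.70, range -1.11 to -0.34), Psmc3 (-0.67, range -0.90 to -0.44) and Psmd4 (-0.51, range -0.76 to -0.44) as examples.

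Lists of meiosis and genome integrity had medians a little below 0. Of 37 genes of MII arrest and the anaphase-promoting complex 26 were lower, with a median of -0.14 (-0.26 without HFHS+DHT oocyte 10 to -0.10 without CD+Veh oocyte 6, -0.38 with oocyte medians). Mos, the kinase that holds the oocyte at MII, had 793 CPM [779.9 to 806] in HFHS+DHT and 1149 CPM [1135 to 1164] in CD+Veh (log2 fold -0.54, -0.89 without HFHS+DHT oocyte 10 to -0.33 without CD+Veh oocyte 6). The inhibitor of the anaphase-promoting complex Fbxo5 (-0.71), the kinase Plk1 (-0.66, range -1.19 to -0.29) and Cdk1, the kinase of M phase (-0.50, range -0.75 to -0.26), were lower, and the median departure of the list was -0.03 (range -0.21 to 0.13, -0.17 with oocyte medians). Of 46 spindle, kinetochore and cohesin genes 30 were lower (median -0.10, range -0.18 to -0.04), such as the kinesins Kif20a (-0.68, range -1.28 to -0.37) and Kif22 (-0.66, range -1.29 to -0.40) and the spindle protein Tacc3 (-0.58). Tacc3 was low in HFHS+Veh and CD+DHT too (log2 folds -0.68 and -0.53) and lay above the sum by 0.63. Of 46 DNA repair genes 32 were lower (median -0.09, range -0.18 to -0.06, -0.28 with oocyte medians), among them Prim1, the catalytic subunit of primase (-0.80, range -1.32 to -0.61), Rad51c of homologous recombination (-0.62) and the 8-oxoguanine glycosylase Ogg1 (-0.61, range -1.22 to -0.38). Prim1 was lower still under the single exposures (-1.09 and -1.28), a departure of 1.58. Of 19 apoptosis regulators 11 were lower (median -0.17, range -0.30 to -0.08, -0.30 with oocyte medians); the caspase inhibitors Xiap (0.64, range 0.21 to 0.80, -0.04 with equal weights) and Birc6 (0.63) were higher and the antiapoptotic Cflar (-0.70) and Bcl2l1 (-0.62, range -1.27 to -0.32) lower.

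Maternal genes on which the embryo draws differed by gene. Of 44 measured maternal effect genes 25 were lower (median -0.07, or -0.30 with oocyte medians). Nlrp5, of the subcortical maternal complex, had 236 CPM [228 to 243] in HFHS+DHT and 367 CPM [359 to 375] in CD+Veh (log2 fold -0.64), and Npm2, which organises the chromatin of the zygote, 257 and 372 CPM in that order (-0.53). Nobox, the transcription factor of growing oocytes, stood at 51.6 CPM in HFHS+DHT, 54.5 in HFHS+Veh, 48.6 in CD+DHT and 89.8 in CD+Veh. It was lower in all 3 exposed pools than in CD+Veh, and its combined log2 fold of -0.80 lay above the sum by 0.81 (range 0.52 to 0.99). Of the DNA methylation genes Dnmt3l, the cofactor of new methylation in growing oocytes, had a log2 fold of -0.90 (-1.43 without HFHS+DHT oocyte 10 to -0.32 without CD+Veh oocyte 6) and the maintenance enzyme Dnmt1 -0.50 (range -0.62 to -0.42), while 9 of 17 members were lower (median -0.01, range -0.14 to 0.03, -0.23 with oocyte medians). Among genes of messenger RNA storage and decay, the oocyte cap-binding protein Eif4e1b (19.9 CPM in HFHS+DHT and 44.3 in CD+Veh; log2 fold -1.16, sum -1.34), the deadenylase Parn (-0.88) and Cnot3 of the CCR4-NOT deadenylase (-0.74) were lower. Pan3 of another deadenylase was higher, at 2552 CPM in HFHS+DHT and 1636 in CD+Veh (0.64), and the list median was -0.01 (range -0.07 to 0.01). Of 20 m6A genes the writers Mettl3 (-0.74, range -1.10 to -0.49) and Rbm15 (0.63) went opposite ways, and the eraser Alkbh5 had 0.59 beside the 0.97 of Wtap.

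Double-stranded RNA and small RNA genes had 11 of 16 measured members lower and a median of -0.24 (range -0.29 to -0.13, -0.39 with oocyte medians). Oas1c had 158 CPM [152 to 164] in HFHS+DHT and 281 CPM [274 to 288] in CD+Veh (log2 fold -0.83) and Oas1e -0.47 (range -0.99 to -0.20), with the same limit on similar genes as for Oas1d; Piwil1, a PIWI protein, was higher (0.63). Of 16 measured imprinted genes 10 were lower (median -0.28, range -0.34 to -0.15, -0.16 with oocyte medians), the lowest median of the 29 lists, and 13 were below the sum (median -0.26, range -0.39 to -0.21). Mest had 311 CPM [303 to 319] in HFHS+DHT and 469 CPM [459.6 to 478] in CD+Veh (-0.59), and H13 (-0.41, range -0.85 to -0.14) and Commd1 (-0.45, -0.03 with oocyte medians) were lower while Inpp5f was higher (0.56).

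In lists of respiratory, glycolytic and fatty acid genes most members were below the sum. Of 26 subunits of respiratory complex I, the entry of electrons from NADH, 22 were below the sum, against 54.0% of all genes, with a median departure of -0.46 (-0.65 to -0.32 without each oocyte in turn). Their median combined log2 fold over the same 26 subunits was 0.09 (that of all measured subunits 0.01, range -0.08 to 0.10, -0.06 with oocyte medians), against 0.32 for diet and 0.17 for androgen alone. Ndufa13 had 18.2 CPM in HFHS+DHT, 25.9 in HFHS+Veh, 26.58 in CD+DHT and 22.37 in CD+Veh (departure -0.76), and Ndufa4 181 CPM in HFHS+DHT, 164 in HFHS+Veh, 222 in CD+DHT and 156 in CD+Veh (departure -0.37, range -0.56 to -0.09). Ndufa10 was lowest in HFHS+DHT, at 166 CPM in HFHS+DHT, 224 in HFHS+Veh, 216 in CD+DHT and 253 in CD+Veh, with a departure of -0.20 (range -0.50 to -0.04). The departure of the list was smallest without HFHS+Veh oocyte 1, the oocyte richest in cumulus markers. Of 30 subunits of complexes II to V 22 were below the sum (median -0.26, -0.47 without HFHS+DHT oocyte 10 to -0.19 without CD+DHT oocyte 11), among them Cox6c (-0.50, range -0.60 to -0.33); Uqcrh, at -0.39, was at 0.02 without CD+DHT oocyte 6. Glycolysis and glucose uptake had 14 of 18 below it (median -0.32, -0.63 without CD+Veh oocyte 6 to -0.09 without CD+DHT oocyte 2, -0.50 with oocyte medians). Hk2, the hexokinase of insulin-responsive tissues, was above CD+Veh in all 3 exposures by like amounts, at 22.9 CPM in HFHS+DHT, 23.5 in HFHS+Veh, 25.31 in CD+DHT and 10.05 in CD+Veh, so its combined log2 fold of 1.19 stood against a sum of 2.56 (a departure of -1.37, -1.62 without HFHS+Veh oocyte 11 to -0.74 without HFHS+Veh oocyte 1, -0.51 with oocyte medians). Ldhb, a lactate dehydrogenase subunit, had a departure of -0.59. Of 44 mitochondrial ribosomal proteins 28 were lower, 63.6% against 55.0% of all genes. Their median was -0.13 (range -0.22 to -0.03), and with oocyte medians -0.23 against -0.15 over all genes. Their median departure was 0.08 (-0.06 without HFHS+DHT oocyte 12 to 0.15 without HFHS+Veh oocyte 1, -0.21 with oocyte medians), with 4 members at least 2-fold below the sum and 1 above it. The insulin, PI3K and mTOR list had 18 of 26 below the sum, and the side of its median departure depended on the setting: it was -0.22 in the pools (range -0.37 to -0.08), -0.02 with oocyte medians and 0.03 with the authors' RPKM. Gsk3b, the kinase that insulin restrains, departed by 0.62 (range 0.40 to 0.96), and the kinase Mtor by -0.55, or 0.11 with equal weights and 0.31 with oocyte medians. Of 25 fatty acid genes 20 were below it (median -0.13, range -0.29 to -0.05, -0.29 with oocyte medians); the acyl-CoA synthetases Acsl4 (81.7 CPM in HFHS+DHT, 147 in HFHS+Veh, 59.1 in CD+DHT and 46.4 in CD+Veh) and Acsl3 (log2 fold 0.53) were higher than in CD+Veh.

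In autophagy and lysosome genes 27 of 35 were below the sum (median -0.26, -0.42 without HFHS+DHT oocyte 10 to -0.13 without HFHS+DHT oocyte 12, -0.39 with oocyte medians). The list held Ctsl and Atg4b at its ends, and beside them the protease Ctsd (0.89, range 0.41 to 1.54, -1.09 with oocyte medians; departure -0.63, range -1.28 to -0.17). Atg10, the enzyme that joins Atg12 to Atg5, went the other way, at 28.9 CPM in HFHS+DHT, 12.4 in HFHS+Veh, 13.29 in CD+DHT and 16.3 in CD+Veh, above the sum by 1.52 (1.01 without HFHS+DHT oocyte 12 to 1.76 without HFHS+DHT oocyte 10, 0.53 with equal weights). Cytosolic ribosomal proteins were higher, 11 of 16 with a median of 0.19 (range 0.09 to 0.36, 0.36 with oocyte medians), and still below the sum in 13 of 17 (median -0.30, -0.06 without HFHS+Veh oocyte 1). Only 16 of 77 passed the minimum level, and they may share reads with copies elsewhere in the genome.

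Of 20 measured androgen and steroid genes 12 were higher (median 0.15, range 0.04 to 0.18, -0.03 with oocyte medians). Hsd3b1 and Ncoa3 were among the higher, and Hsd17b7, of sterol synthesis, was lower (-0.66); the pooled fold of Akr1c18, also on the list, turned with oocyte medians as given above. Mouse counterparts of human genes at loci for polycystic ovary syndrome had 12 of 18 higher (median 0.16, range 0.09 to 0.24, 0.01 with oocyte medians). Among them the transcription factor Gata4 (27.2 CPM in HFHS+DHT and 16.9 in CD+Veh; log2 fold 0.69, 0.01 with oocyte medians), the chromatin protein Hmga2 (0.59, range 0.23 to 0.82, 0.07 with equal weights) and Arl14ep (0.57) were higher and the sulfite oxidase Suox (-0.84, range -0.99 to -0.44, -0.09 with equal weights) lower. Their median departure was 0.08 (range -0.01 to 0.22). Cholesterol genes had a median of -0.06 (range -0.13 to -0.03); Insig1, which retains the sterol sensor in the endoplasmic reticulum, was higher (3479 CPM in HFHS+DHT and 2063 in CD+Veh; log2 fold 0.75; departure 0.19, range 0.01 to 0.51). Zona pellucida and sperm contact genes (0.05), growth and transcription factors (-0.06), oxidative stress genes (-0.03), mitochondrial dynamics (-0.03) and chromatin modifiers (0.03) had medians near 0. Single genes on them stood further out, such as the zona protein Zp3 (-0.46, range -0.81 to -0.24), the integrin Itgb1 (0.59), Stat3 (-0.46), the thioredoxin Txn2 (-0.74, range -1.11 to -0.63), the mitochondrial biogenesis factor Nrf1 (-0.77, range -1.24 to -0.39), the demethylase Kdm4a (-0.85, range -1.33 to -0.66) and the remodelling ATPase Smarca5 (0.71).

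**Figure D5:**
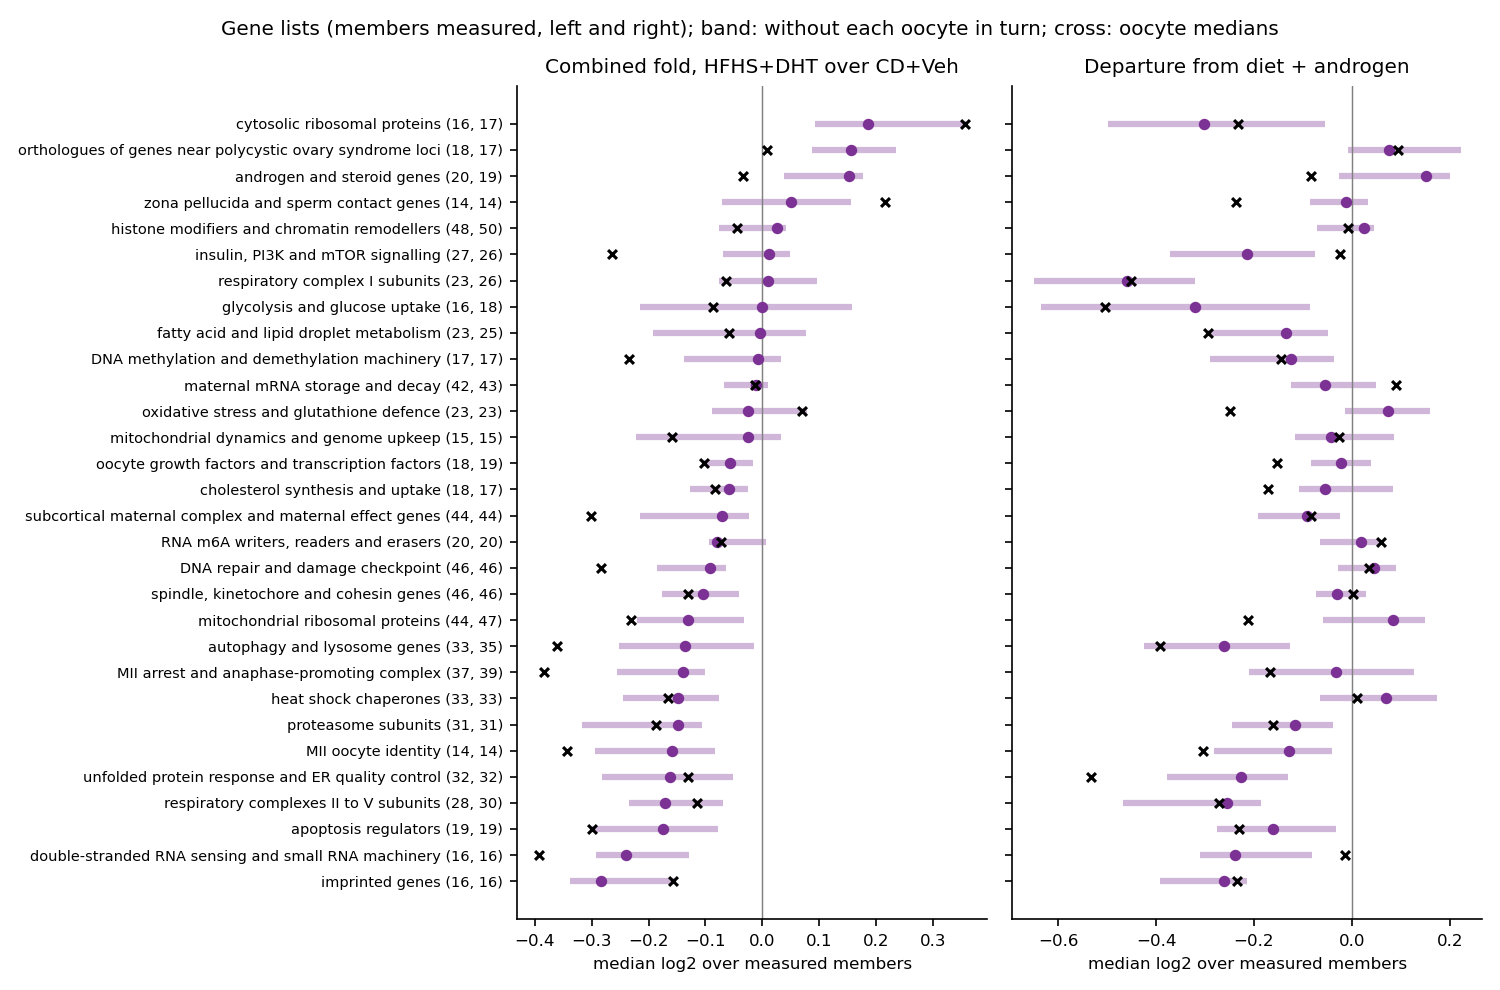
Median log2 value over the measured members of 30 gene lists, left for HFHS+DHT over CD+Veh and right for the departure from the sum of diet and androgen: circles, pooled counts; bands, the range without each oocyte in turn; crosses, oocyte medians. On the left the medians run from -0.28 (imprinted genes) to 0.19 (cytosolic ribosomal proteins), and on the right complex I lies lowest at -0.46.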

How the data were processed

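RNA of single F1 oocytes at metaphase II was measured with Smart-seq2, per the labels' protocols. The authors deposited 1 table of raw counts per gene and oocyte and 1 of RPKM (reads scaled to gene length and mapped depth). Per the submitters' processing notes STAR 2.4.2a, Seurat 2.0 and the mm10 build were used; no source used here names the counting program, its annotation or whether strand was used, so overlapping antisense genes and near-identical copies are uncertain. The count table held 24582 lines, of which 92 were spike-ins and 1 was eGFP; 494 repeated symbols were summed, leaving 23995 gene symbols, and no column lacked a sample. The 25 symbols turned into dates and 88 merged names were not named.

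Oocytes with under 100000 gene counts or 4000 genes were left out. Kept counts were summed per group and scaled to CPM (Python 3.11.15, numpy 2.4.6, pandas 2.3.3, scipy 1.17.1, matplotlib 3.10.9). Folds used genes whose compared groups averaged 5 CPM or more; a group with no count was set to 3 counts. The departure also needed 3 counts in each of the 4 pools. Intervals are exact Poisson, at 95%, and cover counting error only, since reads without molecular identifiers are not independent molecules. The F1 titles name no animal, so no p-value was computed, and the spread between the 4 F2 CD+Veh animals (log2(CPM + 1) of each animal's oocytes) served as a yardstick. No 2 oocytes of a group had identical values or agreed within sampling noise. The computation of pooled folds was tested on simulated data.

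Named genes were the 12 largest combined folds and the 5 largest CPM differences in each direction, and the 8 largest departures in each direction, among genes of at least 20 CPM, with a count in at least 50% of the oocytes of a group, whose sign held with equal weights, with oocyte medians and without each oocyte in turn (2619 genes for the combined fold and 2034 for the departure); for each list, up to 4 members of at least 20 CPM with the largest folds. Markers with no such fold, the cumulus genes Gja1, Inha, Kitl and Nr5a2, were chosen after their values were seen. Positions are from GENCODE vM21 (GRCm38, the mm10 build) and were found for 44 of the 45 genes named from the whole table. Alternatives were edgeR 4.0.16 TMM and DESeq2 1.42.0 median-ratio scaling in R 4.3.3, equal weights, oocyte medians, other filters, the authors' RPKM and leaving out oocytes. The gene lists, the groups and the genes of interest were chosen with earlier results of these data known.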

Additional observations from a re-analysis of the deposited data

Results flagged for a closer look

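Within groups of 8 or 10 oocytes, 98 sets of values were screened by Dixon's criterion. In 10 of them 1 oocyte had a gap to its nearest neighbour that was large for the range of its group. The nominal rate of 1 in 20 does not apply here, since the sets share the same oocytes and include genes chosen from these data. Groups of more than 10 oocytes, HFHS+DHT among them, were not screened. CD+DHT oocyte 11 was low for the summed MII identity genes, at 21408 CPM, and for Tcl1 and Oas1d, at 12.70 and 10.36 on the log2(CPM + 1) scale. CD+DHT oocyte 10 was high for Spin1, at 14.76 on that scale. The value was 0 for Zfp58 in CD+DHT oocyte 7 and for Tubb5 in CD+DHT oocyte 3. CD+Veh oocyte 8 had 0 for Atg4b and 2.15 for Eri1 on the log2 scale, and CD+Veh oocyte 7 had 0 for Exoc3; these are the control oocytes with high spike-in shares. CD+Veh oocyte 14 had 0 for Pcsk5.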

How the results depend on the processing

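No paired analysis was possible because no test was run: oocyte numbers recur across groups but only name oocytes. With a minimum of 1 CPM there were 677 higher, 633 lower, 717 above and 1226 below the sum, and with 20 CPM 18, 19, 25 and 73, fewer or more genes being tested. Equal weights gave 685 lower and 404 above the sum, oocyte medians 724 lower and 761 below, and the authors' RPKM 618 lower and 368 above. The count below the sum exceeded that above it under each of these settings, as it did under both other scalings. Without each oocyte in turn the higher genes numbered 105 to 166, the lower 142 to 468 (468 without HFHS+DHT oocyte 10), those above the sum 198 to 279 and those below 351 to 612 (612 without HFHS+DHT oocyte 10). The median departure of -0.0371 ran from -0.0798 to -0.0054 without each oocyte. It was -0.0523 with equal weights, -0.0786 with oocyte medians, 0.0334 with TMM, 0.0266 with median ratios, -0.0591 with a minimum of 1 CPM, -0.0264 with 20 CPM, -0.0601 with RPKM and -0.0551 without oocytes over 2000 CPM of cumulus markers. The difference in genes detected was -510.2 at 100000 counts and -1416.5 without thinning. Among list medians of at least 0.2 in size, the sign changed for the cumulus markers (-0.0403 with oocyte medians), for the departure of cytosolic ribosomal proteins (0.0009 without oocytes over 2000 CPM of cumulus markers) and for that of insulin, PI3K and mTOR genes (0.0272 with RPKM). Smaller list medians changed sign more often: with oocyte medians 6 of 31 for the combined fold and 6 of 31 for the departure did in all, and without some oocyte 11 and 15. The causes were not tested. Named genes were chosen for a direction that held under most of these settings, so its holding is no sign of stability. Leaving out CD+Veh oocytes 7 and 8, chosen after seeing the data, gave 122 higher, 152 lower, 199 above and 404 below the sum.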
